A study of Hydra vulgaris with 32 samples.

Results

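Hydroxyurea-treated Hydra polyps were compared with untreated polyps on day 5 after the beginning of treatment, about 24 h after the drug had been withdrawn. The comparison takes 6 of the 32 libraries of the series, 3 from hydroxyurea day 5 and 3 from control day 5, which were chosen by their labels alone. The treated animals had received 10 mM hydroxyurea in 3 periods of 24 h with pauses of 12 h between them, so the schedule ended after 96 h, at about day 4. The control animals of day 5 had received no treatment. All animals belonged to the strain Sf-1, a thermosensitive mutant that the submitters also call Hydra magnipapillata A9, while the organism field reads Hydra vulgaris. Feeding stopped at the start of the experiment, so both day 5 groups had starved for 5 days. PolyA RNA was taken from the central part of the body column, with apical and basal regions removed. The labels do not say whether the replicates A, B and C came from separate cultures or pools of animals. The p-values below therefore measure only the spread between replicates, which may be technical. For the edgeR tests this spread was estimated over all 32 libraries of the series together. Other groups are used where they bear on day 5: hydroxyurea on days 4, 7 and 11 with 3 libraries each, heat shock at 28 °C for 62 h with 4 libraries, 0.4% colchicine for 8 h with 3 libraries, and untreated controls of days 4, 7 and 11 with 3, 3 and 4 libraries. The heat shock and colchicine animals were collected on day 9, having starved for 11 days, and share the control of day 11.

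Hydroxyurea inhibits ribonucleotide reductase, the enzyme that supplies deoxynucleotides for DNA replication, and it harms cells in S phase most. In Hydra, the interstitial stem cells and the dividing precursors of nematocytes cycle faster than the ectodermal and endodermal epithelial cells, which are themselves stem cells. The interstitial lineage also gives rise to nerve, gland and germ cells. The series title describes heat shock, hydroxyurea and colchicine as means of depleting fast cycling cells. In RNA from pieces of body column, fewer cells of a type and less RNA per cell cannot be told apart.

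Read counts are given per assembled sequence under the authors' own identifiers, and sequences with the same locus number were summed, which turned 79774 sequences into 25879 loci. The identifiers matched 0 of 28925 genes of the available Hydra gene table, so loci are reported without gene names or functions, and the tissue label could not be checked against markers. The 3 hydroxyurea libraries held 34.2, 25.5 and 30.3 M counts and the 3 control libraries 33.2, 23.6 and 26.1 M, where M stands for mega. Levels are given as CPM, the count divided by the TMM-scaled library total in M, and a count of 0 allows up to 3 counts, or 0.0763 to 0.130 CPM in these libraries, for counting error only. The most abundant locus took 1.69%, 11.0% and 2.37% of the counts in the hydroxyurea libraries, against 1.14%, 10.4% and 13.0% in the control libraries. It varied more within the groups than between them (log2 fold change -0.66, SE 1.38, adjusted p = 0.824 by edgeR's quasi-likelihood test). Across loci, Pearson's r of log2 CPM was 0.977 to 0.980 among hydroxyurea libraries, 0.980 to 0.983 among control libraries and 0.929 to 0.946 between the groups. Loci are not independent replicates. On the first principal component, with 64.9% of the variance, the hydroxyurea libraries scored 56.4, 63.2 and 73.1 and the control libraries -58.7, -67.1 and -66.9.

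On day 5 many of the measured loci differed between hydroxyurea-treated and control body columns, more were lower than higher, and the lower loci had the larger changes. Of 17107 loci tested, 3728 (21.8%) passed edgeR's quasi-likelihood test at a Benjamini-Hochberg adjusted p under 0.05. Of these, 1507 (8.81% of those tested) were higher and 2221 (13.0%) were lower after hydroxyurea. The median log2 fold change was 0.65 among the higher loci and -0.96 among the lower ones, against 0.005 over all loci tested. At least 2-fold differences were found in 358 higher loci (2.09% of those tested) and in 1086 lower loci (6.35%). These were 23.8% of the higher calls and 48.9% of the lower calls. Without control day 5 replicate A, 993 loci were higher and 2021 lower, and with the controls of days 4, 5 and 7 pooled 2324 were higher and 2800 lower. Replicate A was the deepest library of each group, and a fit of only the replicates B, C and D gave 3068 calls, 1116 higher and 1952 lower. Limma voom with library quality weights gave 6014 calls, 2669 higher and 3345 lower. The main fit takes its spread from all groups. Without 2 colchicine libraries of low depth it called 5054 of 18100 loci, 1986 higher and 3068 lower. A fit of only the day 5 libraries called 4759 of 15272 loci, 2052 higher and 2707 lower.

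The imbalance between the directions grew with the size of the change. At least 4-fold, 116 loci were higher and 671 lower. At least 8-fold, 50 were higher and 411 lower. Under 2-fold, the numbers were nearly alike, with 1149 higher and 1135 lower. Over all loci tested, called or not, every hydroxyurea library lay above every control library in 3472 (20.3%) and below every control library in 3846 (22.5%), and among the called loci this held for 1477 of the 1507 higher and 2199 of the 2221 lower ones, as the call itself makes likely. The plot of fold change against level shows these calls together with the loci that were not called.

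**Figure D1:**
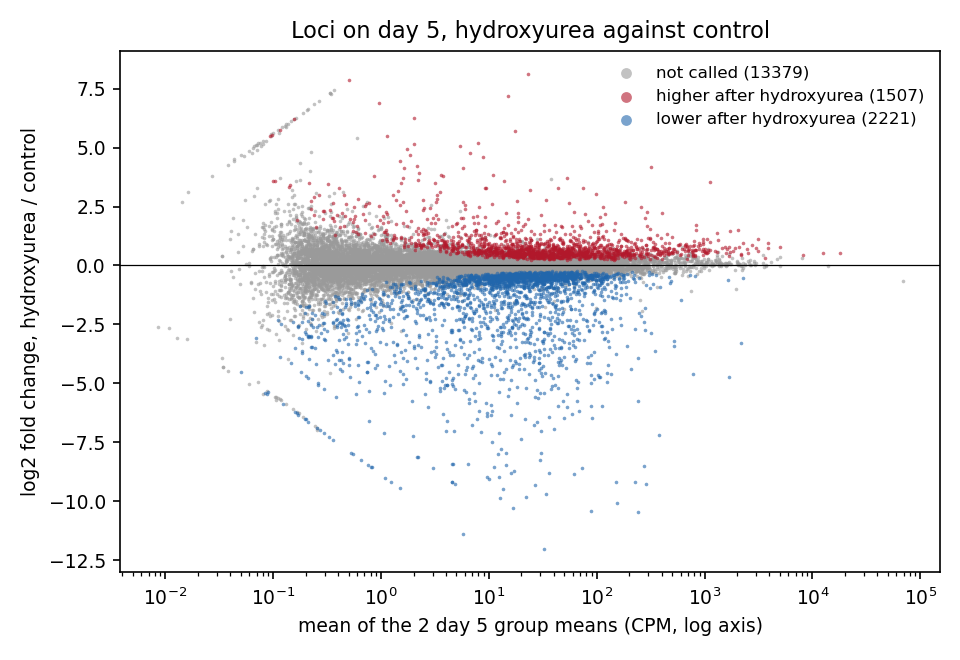
Each point is 1 of 17107 loci, with the mean of the hydroxyurea day 5 and control day 5 group means on the horizontal axis (CPM, log scale) and the log2 fold change of hydroxyurea over control on the vertical axis; red loci were called higher (1507), blue loci called lower (2221) and grey loci not called (13379). The lower calls reach further from 0 than the higher ones, and the straight rows of points at low CPM are loci with no counts in 1 of the groups, whose fold change is set by the prior count.

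A part of the lower loci was close to undetected after hydroxyurea. In 129 of the 2221, the hydroxyurea mean was under 1 CPM while the control mean was at least 5 CPM. The mirror case, a control mean under 1 CPM with at least 5 CPM after hydroxyurea, was found in 15 of the 1507 higher loci. In 111 lower loci every hydroxyurea library held 3 counts or fewer, and in 26 of them every one held 0. Control libraries were this low in 19 of the higher loci. For loci at such counts the fitted fold change depends on the prior count. With those loci set at their bound against 3 counts, the median log2 fold change of the lower loci was -0.95. Since they were 111 of 2221, they could move this median only a little, whatever their values.

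The direction of change also varied with expression level. The level used here is a mean that includes the hydroxyurea libraries. A rise can therefore move a locus to a higher class and a fall to a lower one, so part of the pattern is built in. Among 6578 loci with a mean of 10 to 100 CPM over all libraries, 12.2% were called higher and 19.2% lower. Among 151 loci of 1000 CPM or more, 47 (31.1%) were higher and 4 (2.65%) lower. Among 1380 loci of 100 to 1000 CPM, 23.4% were higher and 10.2% lower. Below 10 CPM lower calls outnumbered higher ones, with 608 lower and 282 higher loci of 5036 at 1 to 10 CPM and 208 lower and 50 higher of 3962 under 1 CPM. Fewer counts leave smaller changes undetected at these levels: under 1 CPM, all 50 higher and all 208 lower loci had changed at least 2-fold.

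In terms of counts, the higher loci weighed more than the lower ones. The 1507 higher loci took 30.5%, 28.0% and 30.2% of all counts in the hydroxyurea libraries A, B and C, against 20.5%, 18.7% and 18.1% in the control libraries. The 2221 lower loci took 4.99%, 4.54% and 5.03% in the hydroxyurea libraries, against 12.7%, 11.9% and 11.5% in the control libraries. The lower loci with at least 2-fold changes took 1.01%, 0.886% and 0.850% of counts after hydroxyurea, against 6.17%, 6.02% and 5.77% in the controls. Since the calls chose these loci, the shares are a description without a test. In each of these sets the 3 hydroxyurea libraries lay on one side of the 3 control libraries, as the choice of loci makes likely.

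With no gene names, 2 loci in each direction are named by a fixed rule: the one with the largest fold change and the one with the largest difference in CPM, among loci with an adjusted p under 0.05, at least 5 CPM in the higher group and no overlap between libraries. Of the higher loci 1308 met these conditions, and of the lower loci 1820. Their values were therefore chosen by the comparison, and the tests are given as its output.

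The locus with the largest rise, loc18216, was near the detection limit in untreated animals. It had 7.17, 69.3 and 61.9 CPM in hydroxyurea replicates A, B and C, against 0.0763, 0.391 and 0.0799 CPM in control replicates A, B and C. Those control values stand for 3, 9 and 2 counts. The groups did not overlap, but replicate A stood far under the other 2 hydroxyurea libraries. The means were 46.1 ± 33.9 CPM after hydroxyurea and 0.183 ± 0.181 CPM in controls (SD, n = 3 each), with a log2 fold change of 8.10 (SE 1.54, adjusted p = 0.000293 in edgeR). Without control replicate B the control mean was 0.0781 CPM. With limma voom and library quality weights the adjusted p was 0.0504, which loses the call. All 3 sequences of this locus were called higher, and most of its CPM came from 1 of them (42.3 ± 31.3 after hydroxyurea, 0.174 ± 0.189 in controls). It was also called higher on days 4, 7 and 11, with 39.7 ± 23.1, 76.8 ± 46.9 and 21.4 ± 21.1 CPM after hydroxyurea, against 0.323 ± 0.118, 0.118 ± 0.0334 and 0.0769 ± 0.0836 CPM in the controls of those days.

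The locus with the largest gain in CPM, loc02296, was already abundant in controls. It had 23553, 19562 and 20311 CPM in hydroxyurea replicates A, B and C, against 12809, 14705 and 16159 CPM in the control replicates. The lowest treated library lay above the highest control library. The means were 21142 ± 2121 and 14558 ± 1680 CPM (SD, n = 3 each), a gain of 6584 CPM and a log2 fold change of 0.54 (SE 0.12, adjusted p = 0.00137 in edgeR). In the replicates B, C and D alone the log2 fold change was 0.37 and the adjusted p was 0.0559, so the call was lost. The locus holds a single sequence. Its log2 fold change against the control of the same day was 0.51, 0.54, 0.62 and 0.75 on days 4, 5, 7 and 11, each with an adjusted p under 0.05, and the difference between day 5 and any other day did not pass the test (adjusted p = 0.847 or more).

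The locus with the largest fall, loc25868, was almost absent after hydroxyurea. It had 0, 1 and 0 counts in hydroxyurea replicates A, B and C, against 2669, 1407 and 1609 counts in the control replicates. The control level was 67.9, 61.2 and 64.3 CPM, an even one (64.5 ± 3.35, SD, n = 3). Summed over libraries these are 1 and 5685 counts, and scaled by the TMM library totals the control to hydroxyurea ratio was 5811, with a 95% Poisson interval of 1043 to 229518 that covers counting error only. The fitted log2 fold change of -12.02 depends on the prior count (adjusted p = 1.56e-10 in edgeR). The loss was already present on day 4, with 0.0522 ± 0.0340 CPM after hydroxyurea and 65.6 ± 6.91 CPM in controls, and on days 7 and 11 the hydroxyurea means were 0.0137 and 0.0330 CPM, against 58.7 and 54.3 CPM in controls. After heat shock and colchicine it stood at 1.36 ± 1.82 CPM (n = 4) and 0.459 ± 0.309 CPM (n = 3).

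The locus with the largest loss of CPM, loc11404, behaved differently over the days. It had 437.9, 473.2 and 319.8 CPM in hydroxyurea replicates A, B and C, against 3098, 4563 and 4270 CPM in the control replicates. The 2 groups were far apart, yet every hydroxyurea library still held 9859 counts of it or more. The means were 410.3 ± 80.3 CPM after hydroxyurea and 3977 ± 775 CPM in controls, with a log2 fold change of -3.28 (SE 0.91, adjusted p = 0.00921 in edgeR). On days 4, 5, 7 and 11 the hydroxyurea means were 1007 ± 64.1, 410.3 ± 80.3, 2.96 ± 0.754 and 3.49 ± 1.46 CPM, against control means of 3985 ± 569, 3977 ± 775, 3377 ± 742 and 3717 ± 979 CPM. On day 4 its log2 fold change of -1.98 did not pass the test (adjusted p = 0.119). The log2 fold change of day 7 minus that of day 5 was -6.89 (adjusted p = 0.0141 in edgeR), and that of day 11 minus that of day 5 was -6.77 (adjusted p = 0.00538). In the replicates B, C and D alone neither difference passed, with -6.65 (adjusted p = 0.395) and -6.88 (adjusted p = 0.0691), while in the other 15 alternatives both passed. The plot of the 4 named loci by day shows this course beside the early loss of loc25868.

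**Figure D2:**
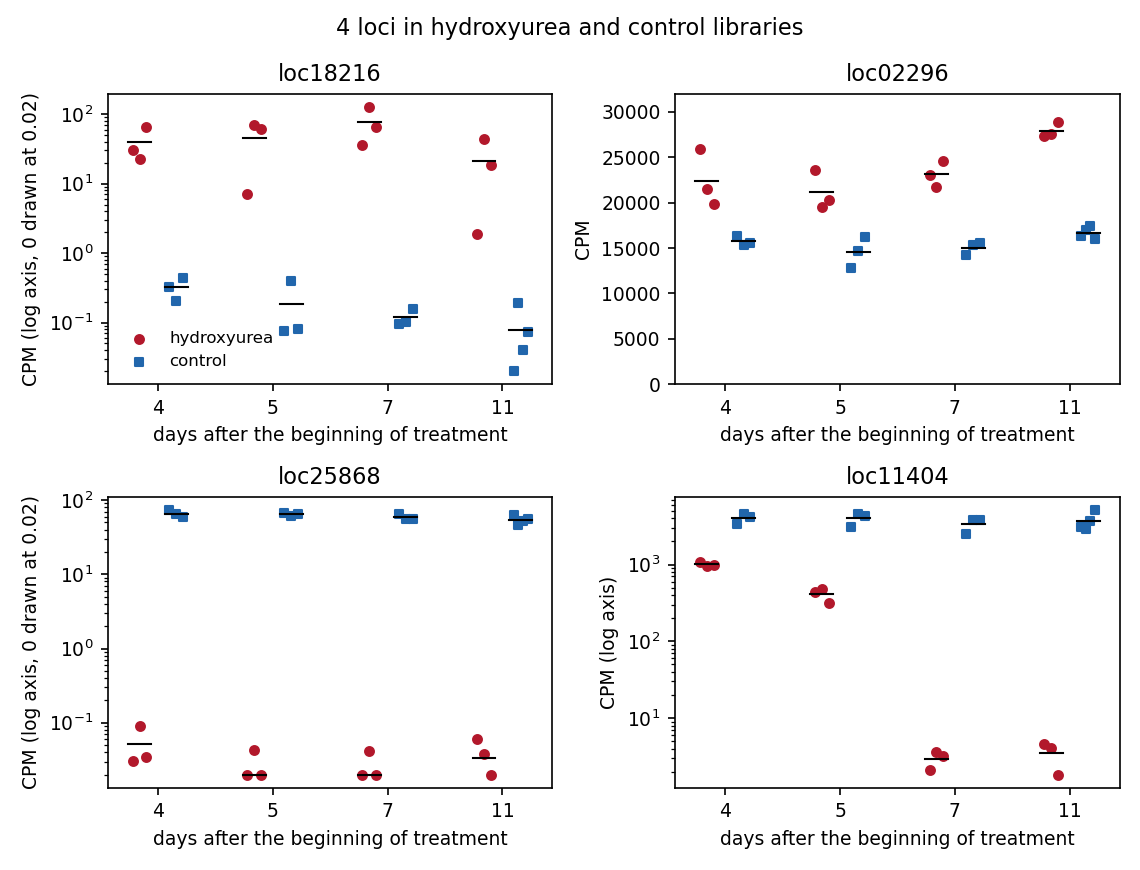
Level in CPM of the 4 named loci in each hydroxyurea library (red circles) and control library (blue squares) on days 4, 5, 7 and 11, with group means as black bars; 3 of the axes are logarithmic and values of 0 are drawn at 0.02. On day 5, loc25868 is already at 0 to 0.0424 CPM after hydroxyurea, while loc11404 is at 319.8 to 473.2 CPM and reaches 2.12 to 3.57 CPM on day 7.

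The other 9 loci of the 10 with the largest rise had log2 fold changes from 3.85 to 7.21, and the other 9 with the largest fall had -11.39 to -9.47. All 9 of each were also called in the same direction on days 4, 7 and 11 and after heat shock and colchicine. In those comparisons 7.21% to 21.7% of all loci tested were called higher and 11.0% to 25.6% lower. For loci with few counts in a group, the fitted values depend on the prior count. In the lower 9, the hydroxyurea means were 0 to 0.357 CPM and the control means 11.6 to 480.5 CPM. In the higher 9, the hydroxyurea means were 6.70 to 604.9 CPM and the control means 0.216 to 33.8 CPM.

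Day 5 follows the last drug period, whereas day 4 falls at about its end, so the 2 days were compared to see what differed once the animals had been out of the drug. The loci changed on day 5 were largely those changed on day 4. On day 4, 1882 loci (11.0% of those tested) were lower and 1234 (7.21%) higher after hydroxyurea. Of the 1882, 1678 were also lower on day 5, which is 89.2% of the day 4 list and 75.6% of the day 5 list. Of the 1234, 1018 were also higher on day 5, or 82.5% and 67.6% of the lists. No locus was called in opposite directions on the 2 days. The day 4 and day 5 comparisons share no library.

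Loci called on only 1 of the 2 days mostly leaned the same way on the other. The 543 loci lower on day 5 and not called on day 4 had median log2 fold changes of -0.37 on day 4 and -0.64 on day 5, and 532 of them were negative on day 4. The 489 higher on day 5 alone had medians of 0.35 and 0.53, and 484 were positive on day 4. The 204 loci lower on day 4 alone had medians of -0.56 and -0.36, and 198 were still negative on day 5. The 216 higher on day 4 alone had medians of 0.81 and 0.44, and 210 were still positive. A call on 1 day alone is not a difference between days.

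Tested directly, the hydroxyurea effect on day 5 minus that on day 4 passed an adjusted p of 0.05 in 0 of 17107 loci (0.0%) by edgeR, with 348 loci at an unadjusted p under 0.05. The 348 are a smaller share than the 0.05 that would pass if no locus differed. The test in this fit is therefore cautious, and its 0 does not show that the effects on the 2 days were equal. DESeq2 called 1 locus and limma voom with quality weights 43, of which 42 had a more negative effect on day 5. When only the 4 groups compared were fitted, edgeR called 117 loci, 116 of them with a more negative effect on day 5. In that fit 695 of 16129 loci had an unadjusted p under 0.05. These 116 had median log2 fold changes of -2.41, -4.02, -7.35 and -7.55 on days 4, 5, 7 and 11. Day 4 and day 5 values chose them, so the step between those 2 medians is a description. The number therefore depends on the fit, and in these last 2 fits nearly all differences had the lower level on day 5.

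The loss went further after day 5. The hydroxyurea effect on day 7 minus that on day 5 differed in 109 loci (0.637% of those tested) by edgeR, of which 105 had a more negative effect on day 7. These 105 loci had median log2 fold changes of -1.71, -2.59, -7.91 and -8.19 on days 4, 5, 7 and 11, and 87 of them had been called lower on day 5. Their summed level was 1785, 2607 and 2882 CPM at its lowest, middle and highest hydroxyurea day 5 library, against 16761, 20243 and 21126 CPM in the control day 5 libraries. In percent of the control mean of the same day, the sum stood at 26.2%, 12.5%, 1.12% and 1.03% on days 4, 5, 7 and 11. Day 5 values helped choose these loci, so the sums are given as a description. The count rests on few libraries: it was 31 without hydroxyurea day 5 replicate A, 65 without replicate B, 45, 40 and 40 without control day 5 replicates A, B and C, and 0 in the replicates B, C and D alone.

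Against day 11 the difference was found in 299 loci (1.75%) by edgeR, 229 with a more negative and 70 with a more positive effect on day 11. Of the 105 loci lower on day 7 against day 5, 101 were among the 229, which is 96.2% of the 105 and 44.1% of the 229. Both differences subtract the same day 5 effect from the same libraries, so part of this overlap is built in. The 229 summed to 31.2%, 18.4%, 6.597% and 4.17% of the control level on days 4, 5, 7 and 11. The 70 with a more positive effect summed to 148.6%, 166.6%, 210.3% and 307.3%. Day 5 and day 11 values chose the 229 and the 70, so these sums are a description. On day 5 itself, 20 of these 70 were called higher and 14 lower, beside 8.81% higher and 13.0% lower of all loci tested. The count was 194 without hydroxyurea day 5 replicate A, 199 and 187 without control day 5 replicates B and C, and 25 in the replicates B, C and D alone, of which 17 were higher.

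Grouping loci by the size of their change on day 5 showed where the later loss lay. The 411 loci at least 8-fold lower on day 5 had median log2 fold changes of -3.35, -4.38, -6.37 and -6.79 on days 4, 5, 7 and 11. Their median level on day 5 was 0.459 CPM after hydroxyurea and 18.9 CPM in controls. Near so few counts the fitted values depend on the prior count, so the size of their later fall is uncertain. The 260 loci 4- to 8-fold lower had -1.95, -2.45, -2.89 and -3.05. The 415 loci 2- to 4-fold lower stayed near their day 5 value, with -1.14, -1.44, -1.41 and -1.54, and so did the 1135 lower by less, with -0.47, -0.54, -0.50 and -0.41. Among the higher loci, the 116 that were at least 4-fold higher had 2.87, 2.78, 3.73 and 3.42, and the 1149 under 2-fold had 0.48, 0.57, 0.54 and 0.53. The classes were cut on day 5, and the libraries of the other days took no part in that choice. The cut can draw the day 5 medians away from 0, so a smaller day 4 median is not by itself a change between days. The plot of these classes by day shows the widening in the lowest class.

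**Figure D3:**
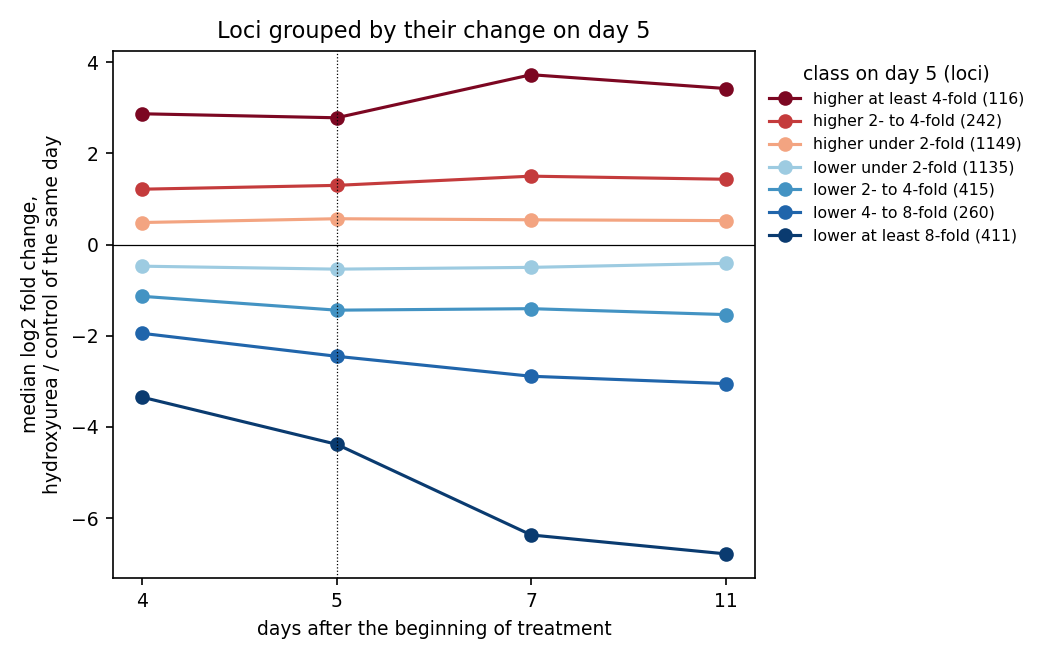
Median log2 fold change of hydroxyurea over the control of the same day (vertical axis) on days 4, 5, 7 and 11 (horizontal axis, days evenly spaced) for loci grouped by their change on day 5, from at least 4-fold higher (dark red) to at least 8-fold lower (dark blue), with the number of loci in the legend. The dotted line marks day 5, whose values define the classes. The lowest class moves from -3.35 to -6.79 over the days, with a median level of only 0.459 CPM after hydroxyurea on day 5. The classes under 2-fold stay within -0.54 to -0.41 and 0.48 to 0.57.

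The loci with the largest falls on day 5 were most often called lower in the other groups too. Of the 411 loci at least 8-fold lower on day 5, 91.7%, 95.9% and 96.8% were also called lower on days 4, 7 and 11, and 95.4% and 96.1% after heat shock and colchicine. Of the 1135 loci under 2-fold lower, the shares were 68.9%, 68.3% and 61.8% on those days and 54.5% and 45.4% after heat shock and colchicine. Over all loci tested, 11.0%, 14.3% and 13.7% were lower on days 4, 7 and 11, and 14.4% and 25.6% after heat shock and colchicine. The classes between did not follow the order of size: on day 4, 75.4% of the loci 4- to 8-fold lower and 77.8% of those 2- to 4-fold lower were called lower, and on days 7 and 11 the shares were 86.2% and 86.9% in the 4- to 8-fold class and 86.3% and 87.2% in the 2- to 4-fold class. In the direction opposite to day 5, colchicine called 117 of the 1135 higher, where it called 21.7% of all loci higher, and heat shock called 3.

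Beyond day 5, 2450 loci (14.3% of those tested) were lower and 1953 (11.4%) higher on day 7, and 2341 (13.7%) were lower and 2231 (13.0%) higher on day 11. Of the day 7 lists, 71.5% were lower and 56.8% higher on day 5 as well. Of the day 11 lists the shares were 72.1% and 50.4%. These lists rest on other libraries than the day 5 comparison, where 13.0% and 8.81% of all loci were called. In the opposite direction were 1 of the 2450, 0 of the 1953, 4 of the 2341 and 1 of the 2231.

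Heat shock and colchicine, the other treatments of the series, were used to choose loci on libraries that the day 5 comparison does not use. Heat shock called 2460 loci lower (14.4% of those tested) and 2502 higher (14.6%), and colchicine 4371 lower (25.6%) and 3713 higher (21.7%), both against control day 11. Colchicine replicates B and C were the shallowest libraries of the series, with 15.2 and 13.1 M counts, and heat shock replicate B was the highest of its group in some of the lower loci (516.4 CPM of loc11404 there, against a heat shock median of 51.6 CPM), so the lists were also chosen without them. Most of the loci lower in both were already lower 5 days into the hydroxyurea course. Of 1884 such loci, 1314 (69.8%) were lower on day 5 and 8 were higher, with a median log2 fold change of -1.16. Of the 1211 that had changed at least 2-fold in both, 914 (75.5%) were lower and 5 higher, with a median of -2.02. The median over all loci tested was 0.005. Chosen without heat shock replicate B, the list lower in both held 1965 loci, 69.0% of them lower on day 5, and without colchicine replicates B and C 1867 loci, 68.2% of them lower.

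Loci lower after only 1 of these treatments divided. Of 510 lower after heat shock and not called after colchicine, 266 (52.2%) were lower on day 5 and 5 higher. Of 2240 lower after colchicine and not called after heat shock, 188 (8.39%) were lower and 60 higher. Leaving out the loci called in the other treatment removes many day 5 calls by itself: among all loci not called after colchicine 6.58% were lower on day 5, and among all loci not called after heat shock 4.98%. Their median log2 fold changes on day 5 were -0.47 and -0.10. Summed over loci, the heat shock list had 15767 ± 273 CPM after hydroxyurea and 21431 ± 745 CPM in controls, and the colchicine list had 61714 ± 575 and 61262 ± 2130 CPM (SD, n = 3 each). Both lists change in size without colchicine replicates B and C, with 1375 loci of heat shock alone, 502 (36.5%) of them lower on day 5, and 1187 of colchicine alone, 91 (7.67%) of them lower.

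The higher loci gave a like picture with smaller values. Of 1695 loci higher after both heat shock and colchicine, 848 (50.03%) were higher on day 5 and 5 lower, with a median log2 fold change of 0.46. Of the 444 that were at least 2-fold higher in both, 282 (63.5%) were higher and 2 lower, with a median of 1.10. Of 560 higher after heat shock and not called after colchicine, 169 (30.2%) were higher on day 5. Of 1952 higher after colchicine and not called after heat shock, 156 (7.99%) were higher and 92 lower, beside 3.11% higher among all loci not called after heat shock and 8.81% among all loci tested. Without heat shock replicate B the list higher in both held 1537 loci (52.6% higher on day 5), and without colchicine replicates B and C 1429 (49.3%). The plot of these lists sets their day 5 calls beside those over all loci.

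**Figure D4:**
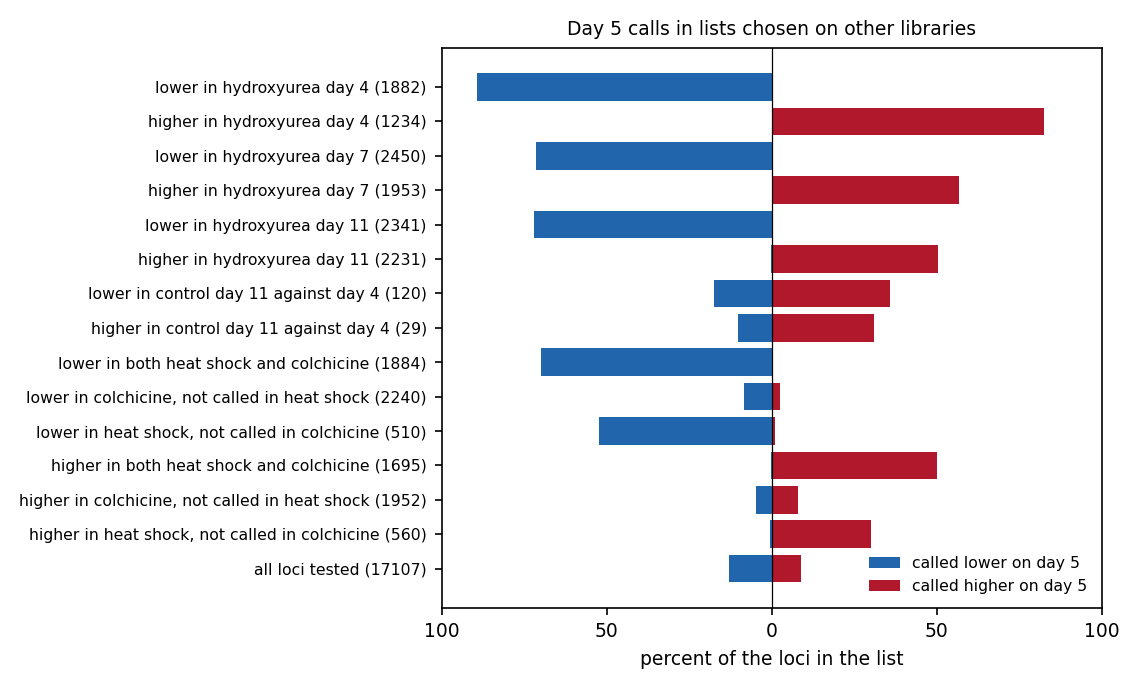
Percent of loci called higher (red, to the right) and lower (blue, to the left) in hydroxyurea day 5 against control day 5, for lists chosen on other libraries, with the number of loci in each list in brackets and all 17107 loci tested in the last bar. The list lower after colchicine and not called after heat shock has 8.39% lower, and the list lower in both treatments has 69.8% lower, beside 13.0% of all loci tested and 4.98% of all loci not called after heat shock.

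As a single value per library, the 1884 loci lower in both treatments summed to 42583, 40028 and 35124 CPM in hydroxyurea day 5 replicates A, B and C, against 88057, 100093 and 97929 CPM in the control replicates. Every hydroxyurea library lay under every control library. The means were 39245 ± 3791 and 95359 ± 6416 CPM (SD, n = 3 each), a ratio of 0.411 (exact two-sided permutation p = 0.1, the smallest that 3 against 3 can give, and 0.107 when adjusted over the 16 lists summed in this way). The 1695 loci higher in both summed to 260904, 262930 and 266510 CPM after hydroxyurea, against 170094, 194223 and 188022 CPM in controls, a ratio of 1.43 (exact permutation p and adjusted p as for the lower list). The ratio of the lower list was 0.417 without its 5 most abundant loci, and that of the higher list was 1.47.

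Over the days, the lists with at least 2-fold changes were set against the controls of the same day. The 1211 lower loci summed to 35.7%, 28.3%, 22.2% and 17.4% of the control level on days 4, 5, 7 and 11, and to 14.2% after heat shock and 9.25% after colchicine. The 444 higher loci summed to 254.8%, 260.0%, 391.3% and 401.4% on those days, and to 374.4% and 595.5% after heat shock and colchicine. Heat shock and colchicine, each against control day 11, chose the lists. The sums of those 2 groups and the percentages of day 11 are therefore a description. The hydroxyurea libraries of days 4 and 5 overlapped in both lists, with 21056 to 29122 CPM on day 4 and 15083 to 22035 CPM on day 5 in the lower list, and 33259 to 38425 CPM on day 4 and 31667 to 37784 CPM on day 5 in the higher one.

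**Figure D5:**
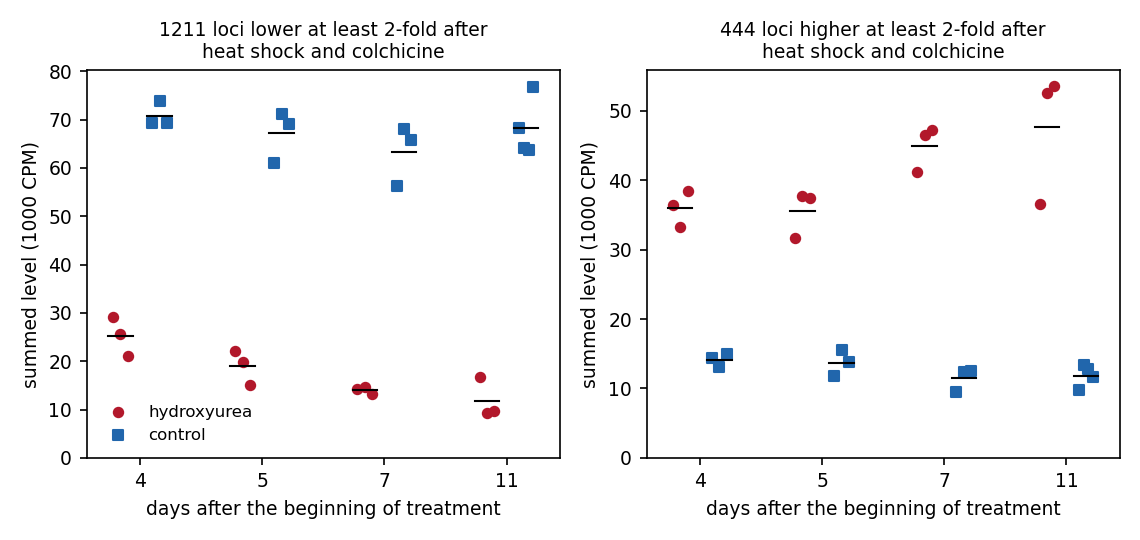
Summed level (in units of 1000 CPM) of 1211 loci lower and 444 loci higher at least 2-fold after both heat shock and colchicine, in each hydroxyurea library (red circles) and control library (blue squares) on days 4, 5, 7 and 11, with group means as black bars. On day 5 the hydroxyurea libraries lie at 15083 to 22035 CPM in the lower list, against 61112 to 71147 CPM in controls, and at 31667 to 37784 CPM in the higher list, against 11798 to 15537 CPM in controls.

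The hydroxyurea effect on day 5 was also set against the heat shock effect in a test of the difference. The 2 effects share no library. It passed in 176 loci (1.03% of those tested) by edgeR, 95 with a higher value after hydroxyurea and 81 with a lower one. Of the 95, 84 were called lower after heat shock, 11 were lower and 25 higher on day 5. Of the 81, 55 were called higher after heat shock, 33 were lower and 19 higher on day 5. Over all loci tested, 14.4% were lower and 14.6% higher after heat shock, and 13.0% were lower and 8.81% higher on day 5. Both effects chose the 95 and the 81, so these counts are a description. The groups also differ in the day of sampling, 5 against 9, and in starvation, 5 against 11 days, and these cannot be told apart from the treatment. The count was 96, 110 and 96 without hydroxyurea day 5 replicates A, B and C and 90 and 81 without control day 5 replicates B and C.

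The effect of longer starvation could be measured between days 4 and 11 of the untreated animals, while the first 4 days were not measured. Day 11 against day 4 gave 120 lower loci (0.701% of those tested) and 29 higher ones (0.17%) by edgeR. Of the 120, 43 (35.8%) were higher and 21 (17.5%) lower after hydroxyurea on day 5, and of the 29, 9 (31.0%) were higher and 3 (10.3%) lower. Over all loci tested, 8.81% were higher and 13.0% lower. The 120 loci that decline with starvation summed to 26573, 28096 and 23624 CPM in hydroxyurea day 5 replicates A, B and C, against 14432, 15560 and 16537 CPM in the control replicates. All 3 hydroxyurea libraries lay above all 3 control libraries. The ratio of the means was 1.68 (exact two-sided permutation p = 0.1, adjusted p = 0.107) and 1.499 without the 5 most abundant of the loci. The 29 loci that increase with starvation summed to 6880 ± 447 CPM after hydroxyurea and 4469 ± 196 CPM in controls (SD, n = 3 each), a ratio of 1.54 with the same p.

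The comparison was repeated on the single assembled sequences. Of 38606 sequences tested singly, 4314 (11.2%) were called on day 5, 1455 higher and 2859 lower. A called lower sequence was found in 1809 of the 2221 lower loci, and a called higher one in 1021 of the 1507 higher loci. Of 1337 lower loci with several tested sequences, 801 (59.9%) had a negative fold change in every sequence, and of 998 such higher loci 597 (59.8%) had a positive one in every sequence, so the others held sequences of both signs. Over all 8658 tested loci with several tested sequences, 21.7% were negative and 19.7% positive in every sequence. No sequence was called in 410 of the lower and 482 of the higher loci. In 59 loci, sequences were called in both directions, and 33 of these loci were not called by their sum. Reads shared between sequences of a locus may have been split by the authors' counting, so values of single sequences are uncertain.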

How the data were processed

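PolyA RNA of 32 libraries was sequenced from directional TruSeq libraries, per the labels' protocols. The submitters' processing notes name cutadapt 1.11, Salmon 0.7.2 and DESeq2 without giving their roles, and how strand and reads matching several sequences were treated is not given in the sources used here. The authors deposited whole-number read counts per assembled sequence, and a second table of a normalized signal, in which each column is the count times 1 constant per library. The signal table served only for an alternative test with limma trend on log2(value + 1).

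Counts were summed per locus number. All 32 libraries of 10 groups were fitted together with 1 mean per group in edgeR 4.0.16 (R 4.3.3), using TMM factors, robust quasi-likelihood dispersions with 22 residual degrees of freedom and filterByExpr with its minimum of 10 counts. The filter kept 17107 of 25879 loci, which held 99.963% of counts. A locus was called at a Benjamini-Hochberg adjusted p under 0.05. Differences between days were contrasts of 2 fold changes. Sums over lists were tested with exact permutation tests. Log2 CPM for correlations and principal components used a prior count of 2. The code was tested on simulated data. Library totals ranged from 23.6 to 34.2 M counts on day 5 and from 13.1 to 36.6 M over the series, and no replicates were alike within sampling noise. Intervals reflect counting error alone: without molecular identifiers, reads can be copies of one molecule. Label days were used, which are higher by 1 than the days in the titles of hydroxyurea and control samples. Titles of the heat shock and colchicine samples read 10D, where the labels give day 9 and 11 days of starvation.

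The rule for named loci takes, in each direction, the locus with the largest fold change and the one with the largest difference in mean CPM, among called loci with at least 5 CPM in the higher group and no overlap between libraries. The comparison, the lists, the tests and the named-loci rule were chosen with earlier results of these data known. The test against heat shock and the alternatives without the most abundant locus, heat shock replicate B or, for the lists, colchicine replicates B and C were added after seeing the data. Alternatives were other size factors, filters of 50 counts and none, DESeq2 1.42.0, limma 3.58.1 voom with library quality weights, a replicate block, subsets of libraries, single sequences, pooled controls and each day 5 library left out in turn.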

Additional observations from a re-analysis of the deposited data

Results flagged for a closer look

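3 results were set apart by 1 library of a group of 4, where the gap to the nearest library divided by the range exceeded Dixon's critical value of 0.829. In heat shock replicate B, loc11404 had 516.4 CPM, while the median of the 4 heat shock libraries was 51.6 CPM (ratio 0.853). In the same library the 105 loci with a more negative hydroxyurea effect on day 7 than on day 5 summed to 2762 CPM, while the heat shock median was 405.2 CPM (ratio 0.875). In heat shock replicate A, loc18216 had 110.3 CPM, while the median was 11.1 CPM (ratio 0.871). Chance flags about 1 in 20 such groups, or 0.5 of the 10 groups of 4 tested here. The 2 flags of heat shock replicate B are not independent, because loc11404 is among the 105 summed loci. None of the 3 lies in a day 5 library.

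Several differences between effects passed a direct test. The hydroxyurea effect differed between days 7 and 5 in 109 loci and between days 11 and 5 in 299 loci. For loc11404 the differences were -6.89 for day 7 minus day 5 and -6.77 for day 11 minus day 5 on the log2 scale, and neither passed in the replicates B, C and D alone (adjusted p = 0.395 and 0.0691). The hydroxyurea effect on day 5 differed from the heat shock effect in 176 loci, and there the day of sampling and the starvation differ too.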

How the results depend on the processing

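The counts of loci called on day 5 stayed within 1.5 times of 3728 in 18 of 19 alternatives (2764 to 3014 with 1 day 5 library left out, where higher loci numbered 993 to 1184), with voom (6014) as the exception, and those with at least 2-fold changes did so except with single sequences (2372, against 1444). The difference of day 5 minus day 4 (0 loci) became 1 with DESeq2, 43 with voom and 117 with only the compared groups. Day 7 minus day 5 (109) gave 44 without a filter, 219 with DESeq2, 473 with voom, 0 in replicates B, C and D, 414 with only the compared groups and 31 to 119 with 1 library left out. Day 11 minus day 5 (299) gave 474, 1251, 25 and 634 under DESeq2, voom, replicates B, C and D and the compared groups, 492 without the 2 shallow colchicine libraries and 187 to 242 with 1 library left out. Against heat shock (176), DESeq2 gave 422, voom 1337, the fit without the shallow colchicine libraries 607 and leaving out 1 library 81 to 127. The cause was not tested. Both list sums kept their direction in all 10 alternatives. The named loci loc25868 and loc11404 were called on day 5 in all 18 alternatives, and loc18216 and loc02296 in 17, with the exceptions given in the text.

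The replicate letters were not taken as pairs: deviations from the group means correlated by 0.104, 0.099 and -0.044 for A, B and C, and replicate C did not correlate best with its own letter. With the replicate letter as a block, 4115 loci were called on day 5, 0, 87 and 312 in the differences against days 4, 7 and 11, and 282 against heat shock. Depth limits the loci under 1 CPM, and colchicine, with 2 shallow libraries, limits lists that rest on it.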

Other observations

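The 120 loci that decline with starvation in untreated animals were followed over all groups. Their summed level after hydroxyurea was 26374 ± 1801, 26098 ± 2273, 23299 ± 2330 and 23102 ± 3026 CPM on days 4, 5, 7 and 11 (SD, n = 3 each), against 17534 ± 331, 15509 ± 1054, 12991 ± 1062 and 9634 ± 898 CPM in the controls of those days (n = 3, 3, 3 and 4). The hydroxyurea libraries lay above the control libraries of the same day on each of the 4 days, and they made up 150.4%, 168.3%, 179.4% and 239.8% of the control mean. Heat shock libraries summed to 24632 ± 3617 CPM (n = 4) and colchicine libraries to 8009 ± 2523 CPM (n = 3), or 255.7% and 83.1% of control day 11. Controls of days 4 and 11 chose these loci, so on those days the sums are a description.

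The 29 loci that increase with starvation summed to 145.7%, 153.9%, 128.3% and 121.9% of the control mean of the same day on days 4, 5, 7 and 11 after hydroxyurea. Their control level was 4033 ± 235 CPM on day 4 and 6273 ± 535 CPM on day 11. The hydroxyurea libraries of day 5, at 6424 to 7317 CPM, overlapped with the control libraries of day 11, at 5581 to 6819 CPM. Controls of days 4 and 11 chose these 29 loci as well. The values of those days and this overlap are therefore a description.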
